A study of Rattus norvegicus with 20 samples.

Results

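The genes described here encode the metabotropic GABA-B receptor (Gabbr1 and Gabbr2), the beta subunit of the glycine receptor (Glrb), the scaffold protein gephyrin (Gphn) and the GABARAP proteins (Gabarap, Gabarapl1 and Gabarapl2). Probe sets annotated to 1 of these 7 genes alone were taken from the 31099 probe sets of the array, which gave 15 probe sets of 6 of the 14217 genes that have such a probe set. Of the 15, 13 had a mean log2 signal above 6.62, the level over which probe sets were tested, and 18625 probe sets in all passed that level. Both probe sets for Gabarapl2 are also annotated to a pseudogene, so no value is given for that gene. A 5th probe set of Gabbr1 (1369372_at, mean log2 signal 4.04) and a 3rd of Glrb (1385861_x_at, mean 1.35) lay under the level.

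GABA-B receptors are obligate heterodimers that signal through inhibitory G proteins. Gabbr1 binds GABA, while Gabbr2 carries its partner to the cell surface and couples to the G protein, and the receptor opens inwardly rectifying potassium channels and closes presynaptic calcium channels. Glycine and many GABA-A receptors are ligand-gated chloride channels that volatile anaesthetics such as isoflurane potentiate. Glrb holds heteromeric glycine receptors at synapses by binding gephyrin, the lattice protein under inhibitory synapses, which also catalyses the last steps of molybdenum cofactor synthesis. GABARAP proteins are ubiquitin-like members of the Atg8 family that join membranes during autophagy and receptor traffic, and Gabarap binds the GABA-A gamma subunit and gephyrin.

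The rats were males of the Sprague Dawley strain, with an age of 20 weeks and a weight of 250 to 300 g. In the oxygen group, 10 rats breathed pure oxygen for 15 min. In the isoflurane group, 10 rats breathed 2% isoflurane (1.4 MAC, the minimum alveolar concentration) in oxygen for 15 min, and both groups recovered for 6 h before the brain was taken. The labels give brain cortex as the tissue and a separate biological replicate for each of the 20 Affymetrix arrays, so all values below are single arrays on the log2 scale of the MAS5 signal.

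The arrays did not all carry a cortical profile. Pcp2, a Purkinje cell gene of the cerebellum, had a log2 signal of 13.60 to 14.17 on 11 arrays (oxygen 5 to 10, isoflurane 1, 3, 7, 8 and 9), called high-Pcp2 arrays here, and 4.46 to 10.67 on the other 9 (oxygen 1 to 4, isoflurane 2, 4, 5, 6 and 10), called low-Pcp2 arrays. On high-Pcp2 arrays all 13 measured cerebellar markers lay above the tested level, and 5 of 10 cortical markers (Fezf2, Emx1, Tbr1, Rorb and Bcl11b) lay at or under it in both groups, against the label. The other 5 (Neurod6, Cux2, Nrn1, Lamp5 and Slc30a3) lay above it, and Neurod6 was nearly level between sets in isoflurane (10.04 against 10.11). On low-Pcp2 arrays 10 (oxygen) and 9 (isoflurane) of 10 cortical markers lay above it, all but Tbr1 in isoflurane. So did 7 and 5 of 13 cerebellar markers. Summed linear signals of the cerebellar markers were 71683 to 92597 on high-Pcp2 and 1922 to 9593 on low-Pcp2 arrays. Isoflurane 2, 4, 5 and 6 stood apart among low-Pcp2 arrays: their 3'/5' ratio of control transcripts (log2), which rises when RNA is degraded or cDNA is incomplete, was 1.28 to 1.59, against 0.76 to 1.23 on low-Pcp2 oxygen arrays and 0.75 on isoflurane 10. Their Pcp2 log2 signal was 4.46 to 5.93, against 7.63 to 8.78 on those oxygen arrays and 10.67 on isoflurane 10. The number of arrays limits the precision. In bulk tissue, fewer cells of a type and less RNA per cell cannot be told apart.

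With the array set (high or low Pcp2) as a block, probe sets 1375720_at of Gabbr1 and 1387383_at of Gabbr2 were called lower after isoflurane. In that fit 7.37% of all tested probe sets passed. Without the block 0 of the 13 passed, where 0.397% of all did. The 2 calls did not hold without isoflurane 2, 4, 5 and 6, when 0 of all 18625 tested probe sets passed. The 250 bases before the annotated starts of these 2 genes are shown (RefSeq, rat assembly GRCr8, both on the minus strand, written 5′ to 3′). Capitals mark the GC box GGGCGG and the motif TGACG, each searched on both strands.

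Gabbr1, chr20:1499237-1499486: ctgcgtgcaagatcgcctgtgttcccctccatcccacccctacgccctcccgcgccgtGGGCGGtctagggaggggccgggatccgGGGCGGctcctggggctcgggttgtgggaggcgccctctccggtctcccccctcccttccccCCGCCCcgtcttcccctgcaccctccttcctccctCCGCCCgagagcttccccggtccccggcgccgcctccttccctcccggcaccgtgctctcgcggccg

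Gabbr2, chr5:66083696-66083945: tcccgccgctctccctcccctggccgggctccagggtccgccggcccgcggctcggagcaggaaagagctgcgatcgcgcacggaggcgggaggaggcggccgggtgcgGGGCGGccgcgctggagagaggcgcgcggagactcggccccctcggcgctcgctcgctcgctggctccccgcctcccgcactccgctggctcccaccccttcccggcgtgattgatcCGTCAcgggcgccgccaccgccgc

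The Gabbr1 stretch holds 4 GC boxes and no TGACG, and the Gabbr2 stretch holds 1 of each. Their GC content was 75.6% and 78.8%, against a median of 51.2% over 33469 promoters of the same length. The other member genes lay above that median too: Glrb 61.2%, Gphn 72.4%, Gabarap 55.2%, Gabarapl1 54.8% and Gabarapl2 62.8%. A GC box stood in 30.5% and TGACG in 18.2% of those promoters. All 7 genes matched an entry, and each has at least 1 GC box: Glrb has 2, Gphn 1, Gabarap 1, Gabarapl1 3 and Gabarapl2 3. The full cAMP response element TGACGTCA (1.59% of promoters) and the E box CACGTG (5.59%) were in none of the 7. These matches describe letters in a window, not bound sites.

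The first comparison asked whether isoflurane changed these transcripts, once over all 20 arrays and once with the array set (high or low Pcp2) as a block. Over all 20 arrays, 0 of 13 probe sets passed an adjusted p of 0.05 by limma, where 0.397% of all tested probe sets passed. An unadjusted p under 0.05 was found for 5 of the 13 and for 2941 of all 18625 tested probe sets. With the set as a block, 2 of 13 passed and both were lower after isoflurane, 1 for Gabbr1 (1375720_at) and 1 for Gabbr2 (1387383_at). In that fit 7.37% of all tested probe sets passed, 4.79% as lower and 2.58% as higher. Both calls were lost without isoflurane 2, 4, 5 and 6, when 0 of all 18625 probe sets passed. Of the isoflurane arrays left, only isoflurane 10 is low-Pcp2, so the blocked fit then rests mostly on the high-Pcp2 arrays. In changes of size without isoflurane 2, 4, 5 and 6, their loss and that shift between sets cannot be told apart. Markers of tissues and cell types were fitted in the same way. Of 11 tested cerebellar, 9 cortical, 6 excitatory neuron, 8 astrocyte and 7 microglial markers 1 of each list fell, as did 2 of 7 oligodendrocyte markers, and none rose. None of 7 interneuron, 6 endothelial, 6 striatal and 4 choroid plexus markers passed, and 0 of 5 measured brainstem and spinal cord markers reached the tested level. The median change of the 13 was -0.20, against 0.00 for all tested probe sets. That median was the value of Gabbr1 on 1388039_a_at, and Gabbr1 and Gabbr2 supply 4 and 2 of the 13. On the brightest probe set of each gene the changes were -0.39 (Gabbr1), -0.33 (Gabbr2), 0.17 (Glrb), -0.02 (Gphn), 0.01 (Gabarap) and -0.07 (Gabarapl1).

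**Figure D1:**
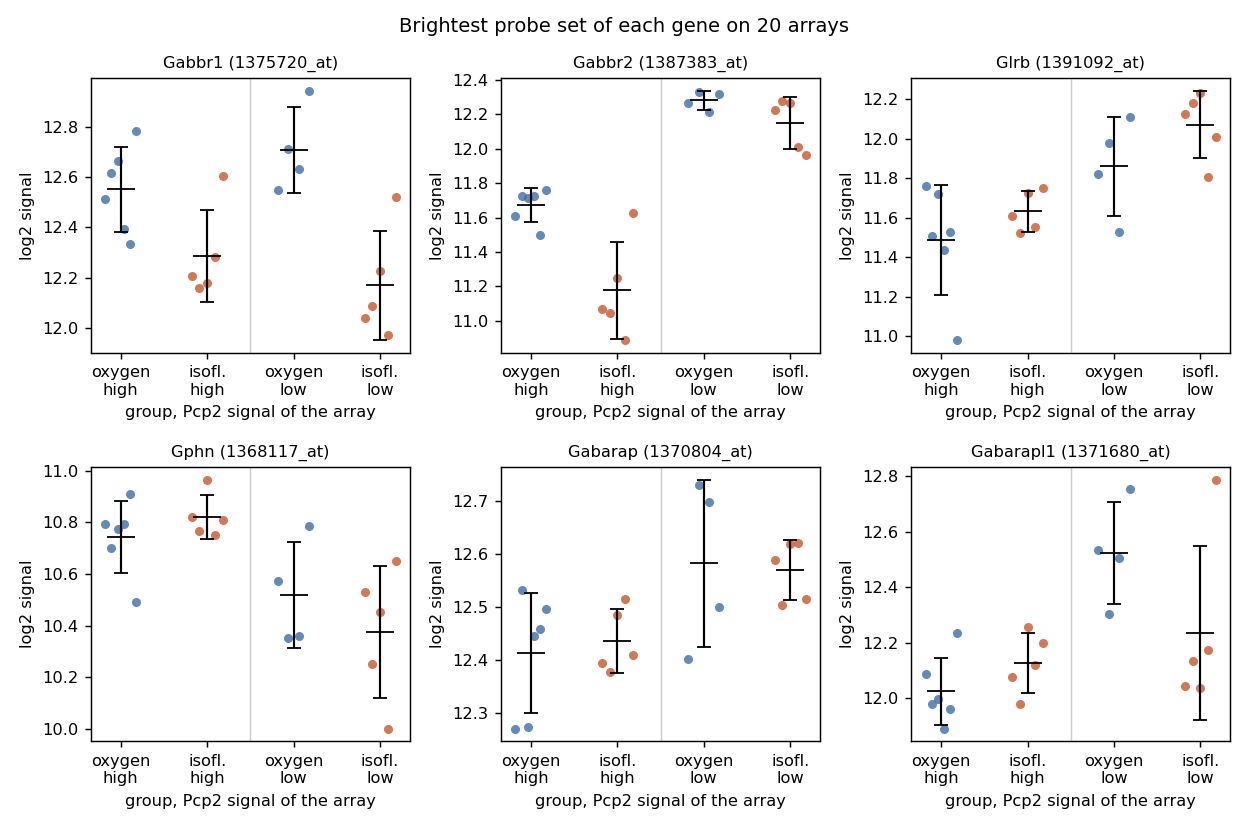
Log2 signal of the brightest probe set of each gene on every array (points), by group and by Pcp2 signal of the array, with mean and SD (bars). Gabbr2 is split by array set, with all 9 low-Pcp2 arrays at 11.96 or above and all 11 high-Pcp2 arrays at 11.76 or below, while Gabbr1 overlaps between sets and Gabarap spans 12.27 to 12.73 over all arrays.

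Gabbr1, the GABA-binding subunit, was measured by 4 tested probe sets. On its brightest, 1375720_at, the high-Pcp2 oxygen arrays ran from 12.34 through a median of 12.56 to 12.79, and the isoflurane arrays 1, 3, 7, 8 and 9 read 12.21, 12.16, 12.18, 12.28 and 12.60. The low-Pcp2 oxygen arrays 1 to 4 read 12.55, 12.71, 12.63 and 12.94, and isoflurane 2, 4, 5, 6 and 10 read 12.04, 12.09, 12.22, 11.97 and 12.52. Every isoflurane array was below the mean of the 10 oxygen arrays, though the 2 groups of 10 overlapped, as did those of every tested probe set (0% of all 18625 were free of overlap). The groups overlapped among high-Pcp2 arrays through isoflurane 9 alone, and did not overlap among low-Pcp2 arrays, where isoflurane 10 was just under the lowest oxygen array.

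The level of Gabbr1 on 1375720_at was 12.62 ± 0.18 (SD, n = 10) in oxygen and 12.23 ± 0.20 (n = 10) in isoflurane. With the set as a block the change was -0.39 ± 0.09 (SE), a ratio of 0.763, with an adjusted p of 0.0147 by limma. It was -0.25 (adjusted p = 0.213) without isoflurane 2, 4, 5 and 6, and -0.38 (adjusted p = 0.0145) with the 3'/5' ratio as a covariate. Between array sets this probe set differed by -0.02 (high minus low Pcp2, mean of both groups).

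The second probe set of Gabbr1, 1388039_a_at, showed smaller differences. Its high-Pcp2 oxygen arrays ran from 12.21 through a median of 12.42 to 12.50, and isoflurane 1, 3, 7, 8 and 9 read 12.22, 12.18, 12.33, 12.16 and 12.49. Its low-Pcp2 oxygen arrays read 12.49, 12.63, 12.73 and 12.71, and isoflurane 2, 4, 5, 6 and 10 read 12.26, 12.26, 12.18, 12.48 and 12.39. The low-Pcp2 groups touched without overlapping and the high-Pcp2 groups overlapped. The blocked change of -0.20 ± 0.06 (SE) missed the threshold, with an adjusted p of 0.0552.

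The third probe set, 1369371_a_at, showed another pattern. Its high-Pcp2 arrays ran from 10.41 through a median of 10.87 to 11.24 in oxygen and read 10.50, 11.25, 11.23, 11.10 and 10.91 in isoflurane, so the groups lay within each other. Its low-Pcp2 oxygen arrays read 11.05, 10.06, 10.36 and 10.75, and isoflurane 2, 4, 5, 6 and 10 read 8.73, 8.70, 8.68, 8.41 and 10.73. The 4 isoflurane arrays with the high 3'/5' ratio lay below every oxygen array, and isoflurane 10 lay within the oxygen range. The dimmest tested probe set, 1388030_a_at, read 7.07 on isoflurane 10 and 8.45 to 8.58 on the other 4, the opposite order, and its blocked change was -0.47 ± 0.22 (adjusted p = 0.181). Within low-Pcp2 arrays the changes of the 4 Gabbr1 probe sets were all negative, from -1.51 to -0.24, while within high-Pcp2 arrays they ran from -0.65 to 0.13 and differed in sign. The mean over the 4 probe sets of Gabbr1 fell by 0.42 on the log2 scale in the blocked fit (adjusted p = 0.0087 by limma). Without isoflurane 2, 4, 5 and 6 this mean had a change of -0.27 and was not called (adjusted p = 0.159), and the change of 1369371_a_at went from -0.61 to 0.14.

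**Figure D2:**
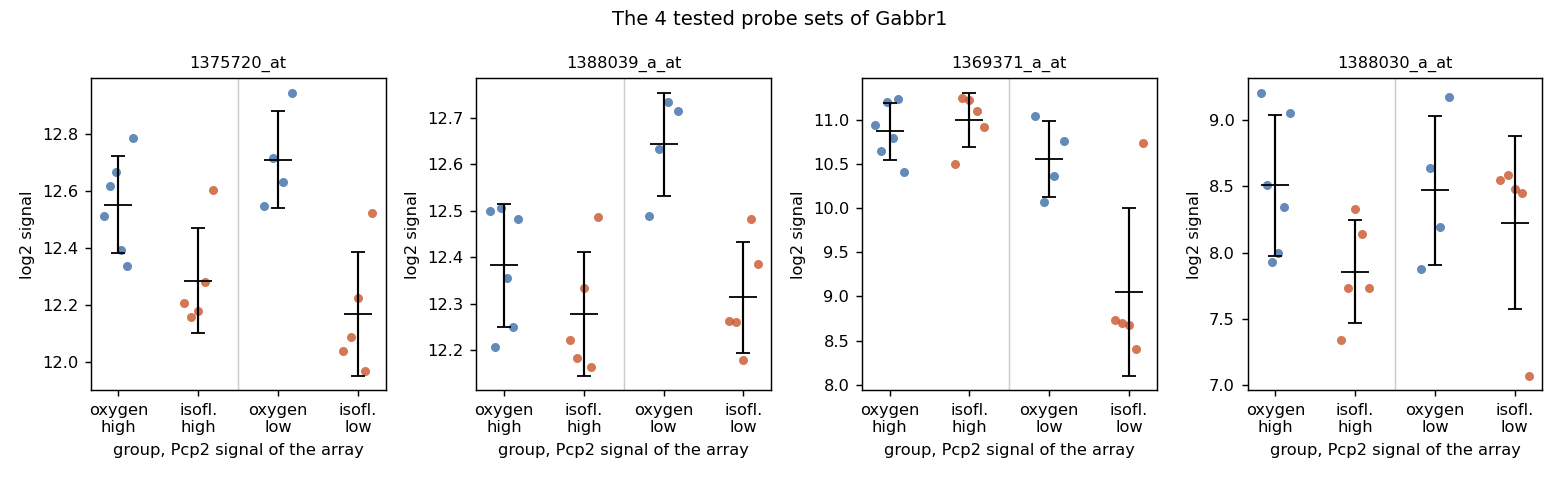
Log2 signal of the 4 tested Gabbr1 probe sets on every array (points), by group and array set, with mean and SD (bars). On 1369371_a_at, 4 low-Pcp2 isoflurane arrays sit at 8.41 to 8.73 and the remaining array at 10.73, while on 1375720_at the 5 isoflurane arrays of that set all lie below the oxygen arrays.

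Gabbr2, the subunit that couples to the G protein, had a bright probe set that separated the array sets. On 1387383_at the high-Pcp2 oxygen arrays ran from 11.50 through a median of 11.72 to 11.76, and isoflurane 1, 3, 7, 8 and 9 read 11.07, 11.05, 11.25, 10.89 and 11.63. The low-Pcp2 oxygen arrays read 12.26, 12.33, 12.21 and 12.32, and isoflurane 2, 4, 5, 6 and 10 read 12.22, 12.28, 12.27, 12.01 and 11.96. Of the 5 high-Pcp2 isoflurane arrays, 4 lay below every oxygen array of their set, and isoflurane 9 lay among the oxygen arrays. The means of group and set ranked as low-Pcp2 oxygen (12.28 ± 0.05, SD, n = 4), low-Pcp2 isoflurane (12.15 ± 0.15, n = 5), high-Pcp2 oxygen (11.67 ± 0.10, n = 6) and high-Pcp2 isoflurane (11.18 ± 0.28, n = 5), and the ranges of the 2 groups overlapped within each set but not between sets.

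The blocked change of Gabbr2 on 1387383_at was -0.33 ± 0.09 (SE), a ratio of 0.794, with an adjusted p of 0.0267 by limma. All 5 isoflurane arrays of each set lay below their set's oxygen mean. The call was lost without isoflurane 3 (-0.30, adjusted p = 0.0512), when 4.29% of all probe sets passed. Without isoflurane 2, 4, 5 and 6, when the fit rests mostly on high-Pcp2 arrays, the change was larger but not called (-0.45, adjusted p = 0.122). Within each set alone the change was -0.50 (high Pcp2) and -0.13 (low Pcp2). With the 3'/5' ratio as a covariate the blocked change was -0.37 (adjusted p = 0.00661). The dim probe set 1368952_at ranged from 6.54 to 7.70 on high-Pcp2 arrays and from 3.79 to 8.24 on low-Pcp2 arrays, and its blocked change was -0.81 ± 0.35 (adjusted p = 0.14). The lowest value belonged to isoflurane 5, and without that array the change of 1368952_at was -0.53 (adjusted p = 0.139). The mean of both probe sets of Gabbr2 fell by 0.57 on the log2 scale (adjusted p = 0.0284 by limma), and by 0.44 without isoflurane 5 (adjusted p = 0.0199). The call of this mean was lost without oxygen 1 (-0.51, adjusted p = 0.0543), without oxygen 4 (-0.56, adjusted p = 0.0555) and without isoflurane 2, 4, 5 and 6 (-0.36, adjusted p = 0.123).

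Glrb, the subunit that binds gephyrin, gave opposite pictures on its 2 tested probe sets. On 1391092_at the high-Pcp2 arrays ran from 10.98 to 11.76 in oxygen (median 11.52) and read 11.61, 11.52, 11.73, 11.55 and 11.75 in isoflurane. The low-Pcp2 arrays read 11.82, 11.98, 11.53 and 12.11 in oxygen and 12.13, 12.18, 12.23, 11.81 and 12.01 in isoflurane. Groups overlapped in each set, and the blocked change was 0.17 ± 0.09 (adjusted p = 0.226). On 1370146_at isoflurane 2, 4, 5 and 6 read 9.16, 9.26, 9.05 and 8.17 and isoflurane 10 read 10.69, against 10.61, 9.13, 9.67 and 9.50 in low-Pcp2 oxygen. Its high-Pcp2 arrays ran from 9.10 through 10.14 to 10.39 in oxygen and read 10.37, 10.75, 10.77, 10.63 and 9.73 in isoflurane. Its blocked change was 0.04 ± 0.27 (adjusted p = 0.942), and its sign turned with median centring. Between array sets 1391092_at differed by -0.41 (high minus low Pcp2) and 1370146_at by 0.73, so the probe sets do not give Glrb 1 order of levels.

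Gphn, the scaffold of inhibitory synapses, spanned 10.00 to 10.97 over all arrays and changed little in the blocked fit. On 1368117_at the high-Pcp2 arrays ran from 10.49 through 10.78 to 10.91 in oxygen and read 10.82, 10.76, 10.97, 10.75 and 10.81 in isoflurane. The low-Pcp2 arrays read 10.57, 10.35, 10.36 and 10.79 in oxygen and 10.53, 10.25, 10.45, 10.00 and 10.65 in isoflurane. The blocked change was -0.02 ± 0.08 (adjusted p = 0.9), and the difference between sets was 0.34, with ranges that overlapped.

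Gabarap, which binds GABA-A receptors and gephyrin, varied little on its bright probe set. Gabarap on 1370804_at spanned 12.27 to 12.53 on high-Pcp2 and 12.40 to 12.73 on low-Pcp2 arrays, with a blocked change of 0.01 ± 0.05 (adjusted p = 0.946) whose sign turned with quantile normalization and with median centring. Its dim probe set 1378279_at was lower on all 10 isoflurane arrays than the oxygen mean, with a blocked change of -0.31 ± 0.12 that was not called (adjusted p = 0.118).

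Gabarapl1, a close relative of Gabarap in autophagy, gave a split among low-Pcp2 isoflurane arrays. On 1371680_at it read 12.54, 12.30, 12.51 and 12.75 in low-Pcp2 oxygen and 12.04, 12.14, 12.04, 12.17 and 12.79 in isoflurane 2, 4, 5, 6 and 10. The 4 arrays lay below every oxygen array of the set and isoflurane 10 above all of them. High-Pcp2 arrays spanned 11.89 to 12.24 in oxygen and 11.98 to 12.26 in isoflurane, and the blocked change was -0.07 ± 0.09 (adjusted p = 0.648). On 1378842_at the isoflurane arrays 3, 7 and 8 (10.21, 10.21 and 10.32) lay above all high-Pcp2 oxygen arrays (9.35 to 9.76), and isoflurane 1 and 9 (9.59 and 9.55) lay among them. Its blocked change was 0.29 ± 0.12 (adjusted p = 0.135), and 0.37 (adjusted p = 0.0129) with the 3'/5' ratio as a covariate.

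Within the 11 high-Pcp2 arrays (6 oxygen, 5 isoflurane) the question was whether the change held in that set alone. By limma 0 of 13 probe sets passed (4 at an unadjusted p under 0.05), where 0% of all tested probe sets passed and 2376 had an unadjusted p under 0.05. Gabbr2 on 1387383_at had a change of -0.50 ± 0.12 (adjusted p = 0.331) and Gabbr1 on 1375720_at one of -0.27 ± 0.10 (adjusted p = 0.351). Gabbr1 on 1388030_a_at had a change of -0.65 ± 0.25 and Gabarapl1 on 1378842_at one of 0.41 ± 0.15, each with an adjusted p of 0.351. Isoflurane 9 had a 3'/5' ratio of 0.99, against 0.63 to 0.75 on the other 4 isoflurane arrays and 0.71 to 0.96 in oxygen. Without it Gabbr2 (-0.61, adjusted p = 0.00546) and Gabbr1 (-0.35, adjusted p = 0.0449) were called, and the calls among all tested probe sets went from 0 to 1086 (5.83%). No probe set of the 13 was free of overlap between groups here, where 0.988% of all were.

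Within the 9 low-Pcp2 arrays (4 oxygen, 5 isoflurane) 3 of 13 probe sets fell and 0 rose, all 3 of Gabbr1, where 7.42% of all tested probe sets were called lower and 18.6% in either direction. They were 1375720_at (-0.54 ± 0.13, adjusted p = 0.0167), 1388039_a_at (-0.33 ± 0.09, adjusted p = 0.0323) and 1369371_a_at (-1.51 ± 0.42, adjusted p = 0.0302). As a count in either direction, 3 of 13 lies near the background, and the 3 share a gene. Of them, 1375720_at and 1388039_a_at did not overlap between groups, where 6.52% of all probe sets were lower without overlap. Gabbr2 on 1387383_at had a change of -0.13 ± 0.09 (adjusted p = 0.336). With the 3'/5' ratio as a covariate, when 5.97% of all probe sets passed, none of the 3 did: -0.45 (adjusted p = 0.0741), -0.32 (adjusted p = 0.0937) and -0.75 (adjusted p = 0.0526) in that order. Without isoflurane 2, 4, 5 and 6, which leaves isoflurane 10 as the sole isoflurane array, assumed to vary like the oxygen arrays, they were -0.19, -0.26 and 0.18, and none passed. Leaving out any 1 of oxygen 3, oxygen 4, isoflurane 2, isoflurane 4 or isoflurane 5 left 1 call, while 8.62% to 10.1% of all probe sets passed. As each of the 9 arrays was left out, 1369371_a_at lost its call 7 times, 1388039_a_at 6 times and 1375720_at never. Leaving out isoflurane 10 gave 5 calls of 13, while 33.6% of all passed. Marker lists had calls in the same set of arrays. Of 8 astrocyte markers 3 fell, as did 2 of 7 oligodendrocyte and 1 each of 4 choroid plexus, 6 excitatory neuron and 7 microglial markers, and none of these rose. Of 9 cortical markers 1 rose and 2 fell, and of 7 interneuron markers 2 rose and 1 fell. None of 11 cerebellar markers passed, with a median change of -1.15, nor did any of 6 endothelial or 6 striatal markers. The part of these markers in the calls of Gabbr1 was not tested.

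**Figure D3:**
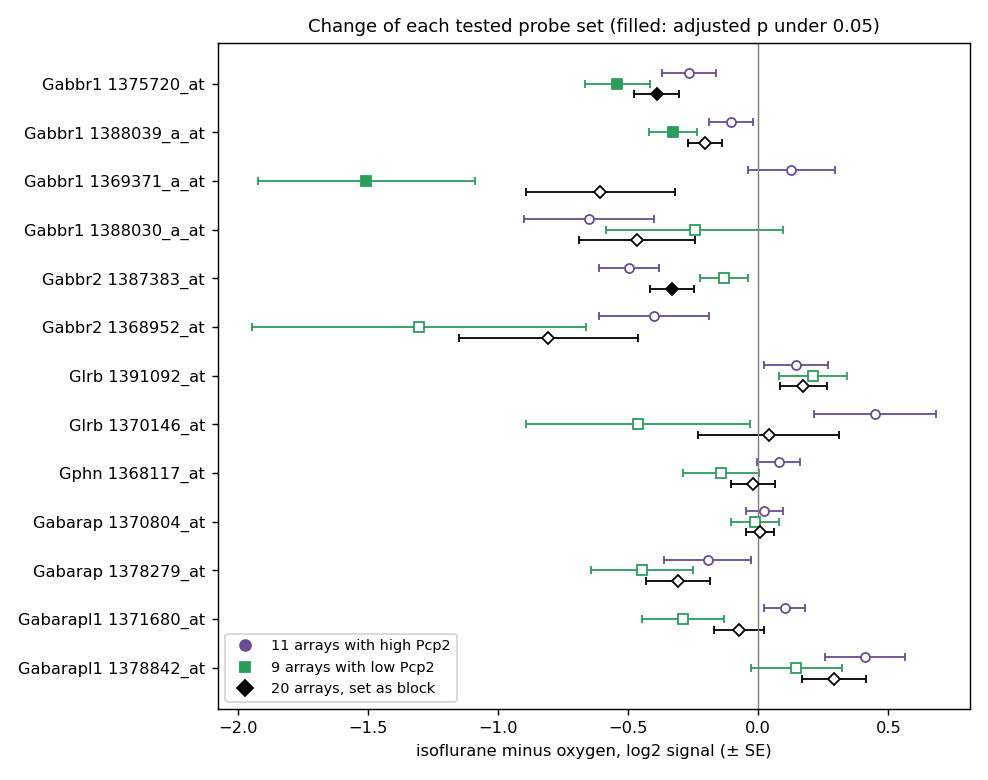
Change of each of the 13 tested probe sets (isoflurane minus oxygen, log2 signal, with SE) within high-Pcp2 arrays, within low-Pcp2 arrays and over all 20 with the set as a block. Filled symbols have an adjusted p under 0.05: 3 Gabbr1 probe sets in the low-Pcp2 arrays and 1 probe set each of Gabbr1 and Gabbr2 in the blocked fit.

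The difference of the isoflurane effect between the sets was tested as an interaction. It passed for 1 of 13 probe sets, where 10.2% of all did: Gabbr1 on 1369371_a_at, whose change was higher in high-Pcp2 arrays by 1.63 ± 0.46 (adjusted p = 0.0278). With the 3'/5' ratio as a covariate the difference was 0.75 (adjusted p = 0.199), and 0.558% of all probe sets passed. The call was also lost without any 1 of isoflurane 2, 4, 5, 6 or 7 or oxygen 4, when 5.95% to 6.81% of all passed. For Gabbr2 on 1387383_at it was -0.36 ± 0.15 (adjusted p = 0.133), and for Gabbr1 on 1375720_at 0.27 ± 0.17 (adjusted p = 0.29).

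**Figure D4:**
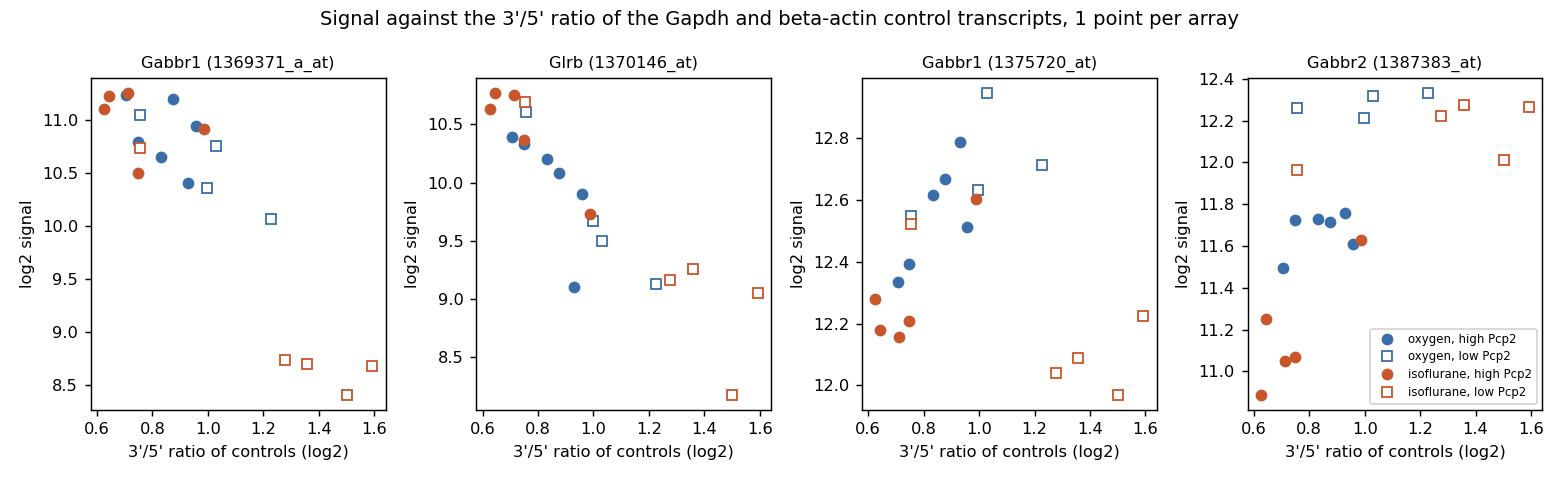
Log2 signal of 4 probe sets against the log2 3'/5' ratio of the control transcripts, with 1 point per array. Isoflurane 2, 4, 5 and 6 (ratio 1.28 to 1.59) hold the lowest signals of Gabbr1 on 1369371_a_at. On 1387383_at of Gabbr2 all low-Pcp2 arrays lie above the high-Pcp2 arrays, whose ratios reach no higher than 0.99 (isoflurane 9), so the sets cannot be compared above that ratio.

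The levels by array set are a description, since the sets were made from the Pcp2 signal of the same arrays. Gabbr2 on 1387383_at was the 1 probe set of 13 free of overlap between sets, lower on high-Pcp2 arrays (10.89 to 11.76) than on low-Pcp2 arrays (11.96 to 12.33), where 18.8% of all tested probe sets had no overlap. The summed linear signal of 6 excitatory neuron markers was likewise lower on high-Pcp2 than on low-Pcp2 arrays. In isoflurane it was 4214.7 to 10304 against 20673 to 32913, and in oxygen 6148 to 9858 against 24526 to 29386. Sums of cortical markers (7805 to 10180 against 16142 to 21112) and striatal markers (4562 to 6594 against 9018 to 19129) were also lower there. So were those of microglial markers (2048 to 3511 against 3996 to 6333), while those of cerebellar and interneuron markers were higher. The sums of the other lists overlapped between sets. The part of any list in the split of Gabbr2 was not tested. The 6 excitatory neuron markers did not all follow their sum. Mean log2 signals of Camk2a were 8.76 (oxygen) and 7.15 (isoflurane) on high-Pcp2 against 12.57 and 13.33 on low-Pcp2 arrays, and those of Nrgn 9.33 and 8.54 against 13.55 and 13.43. Neurod2 was higher on high-Pcp2 arrays in oxygen (10.00 against 8.98), and Slc17a7 was nearly level in isoflurane (11.45 against 11.54). The median absolute difference between sets was 0.31 for the 13 and 0.39 for all tested probe sets. The largest among the 13 was 1.13 for Gabbr1 on 1369371_a_at, which came to 0.32 in oxygen and 1.95 in isoflurane arrays.

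The genes around these receptors were summarised by their brightest probe set in the blocked fit, where 5.87% of 10315 genes were lower and 1.86% higher. Of 29 tested of 35 GABA-B partners and effectors, 2 fell and 0 rose, with a median of -0.12. They were Grk2 (-0.76 ± 0.19, adjusted p = 0.0264), a kinase of activated G protein-coupled receptors, and Pianp (-0.98 ± 0.26, adjusted p = 0.0308), a membrane protein that binds the sushi domain of Gabbr1. The change of Grk2 was -0.17 in high-Pcp2 and -1.48 in low-Pcp2 arrays, and this difference passed (1.31, adjusted p = 0.00756). Of 5 tested of 10 genes of glycine receptors and glycine transport 1 fell, the glial glycine transporter Slc6a9 (-0.57 ± 0.12, adjusted p = 0.0144), with a list median of -0.34. Glra1, the adult alpha subunit, and the neuronal glycine transporter Slc6a5 lay under the tested level.

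Of 16 tested of 23 genes of gephyrin partners and molybdenum cofactor synthesis, 2 fell and 1 rose, with a median of -0.05. Iqsec3, an exchange factor that binds gephyrin, fell (-0.76 ± 0.14, adjusted p = 0.00873), as did the actin regulator Enah (-0.30 ± 0.08, adjusted p = 0.0332). Mdga2, a membrane-anchored protein that binds neuroligins, rose (0.53 ± 0.14, adjusted p = 0.0314), by 0.17 in high-Pcp2 and 0.96 in low-Pcp2 arrays, a difference that passed (-0.79, adjusted p = 0.0326). Of 21 tested of 24 genes of Atg8 conjugation and GABARAP partners, 1 fell and 1 rose, with a median of 0.03. The Atg8 protein Map1lc3a fell (-0.37 ± 0.09, adjusted p = 0.019) and Atg3, the enzyme that joins Atg8 proteins to lipid, rose (0.31 ± 0.07, adjusted p = 0.0148), with changes of 0.31 and 0.30 in the 2 sets. The median over all 10315 genes was -0.02. All 8 calls were lost without isoflurane 2, 4, 5 and 6, when no tested probe set passed, but the sizes moved unequally. The fit without them rests mostly on high-Pcp2 arrays, so these moves also carry differences between the sets. Atg3 (0.31), Map1lc3a (-0.32), Iqsec3 (-0.66) and Enah (-0.25) kept changes within 1.5 times of those above. Grk2 (-0.24), Pianp (-0.45), Mdga2 (0.22) and Slc6a9 (-0.36) moved by more than that.

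**Figure D5:**
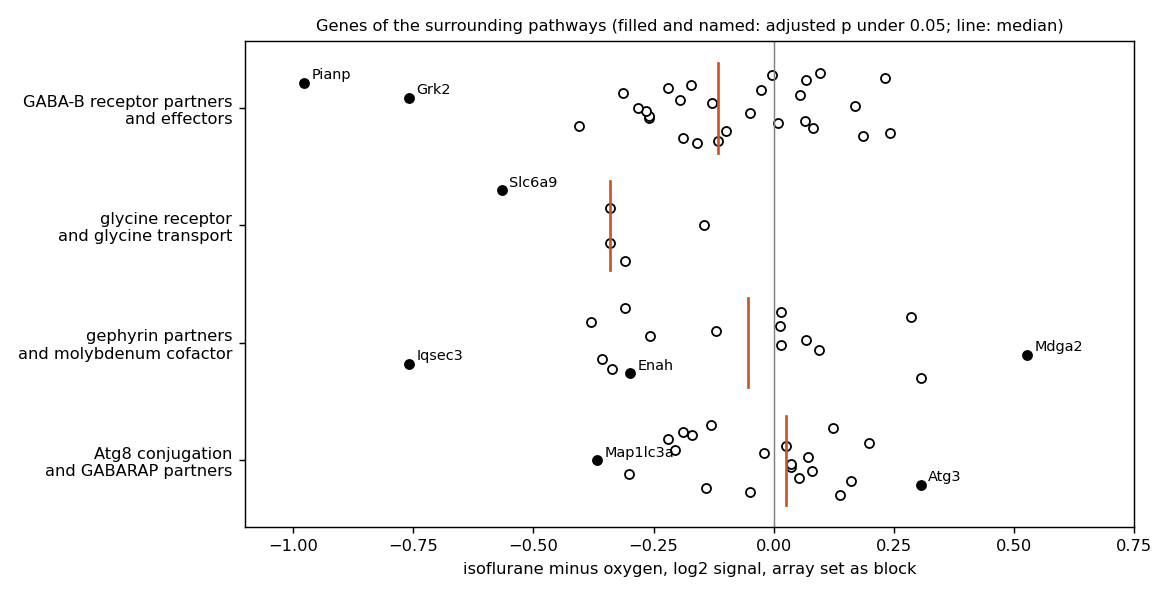
Change in the blocked fit (isoflurane minus oxygen, log2 signal) of each tested gene in 4 lists, with the list median as a line. Named and filled genes have an adjusted p under 0.05, from Pianp at -0.98 to Mdga2 at 0.53.

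Genes with the most similar profile to each member were found by the root mean square difference of log2 signals over the 20 arrays, each profile centred within its array set. The nearest to Gabbr1 (1375720_at) were Nploc4 (0.0932), Syp (0.102) and Hnrnpl (0.103), against a spread of 0.265 of its own profile. Nearest to Gabbr2 (1387383_at, own spread 0.243) were Nalf1 (0.109), Ncoa6 (0.124) and Nf2 (0.127). Nearest to Glrb (1391092_at, 0.212) were Usp33 (0.105), Gdap1 (0.115) and Slc4a10 (0.116), and nearest to Gphn (0.17) were Efr3a (0.0998), Gclm (0.103) and Txnl1 (0.108). Nearest to Gabarap (1370804_at, 0.0919) were Tsnax (0.0634), Dazap2 (0.066) and Acbd6 (0.0746), and nearest to Gabarapl1 (1371680_at, 0.204) were Ube2l3 (0.0995), Larp6 (0.103) and Hadhb (0.104). All these profiles share the arrays and their scaling.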

How the data were processed

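Per the labels' protocols, total RNA was extracted with TRIZOL and column purified, and biotin-labelled cRNA was hybridised to Affymetrix arrays. The submitters' processing notes name MAS5 and Affymetrix Expression Console, with versions not given in the sources used here, and the deposited values are linear array intensities. Titles gave each sample its group and replicate number. The member genes and all lists were chosen with earlier results of these data known.

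Intensities were floored at 1 and put on the log2 scale, without renormalizing. Controls left aside, 31042 probe sets remained, and the 18625 whose mean over all arrays exceeded 6.62 (40th percentile) entered the tests. Probe sets were named from GEO's platform annotation where it gives 1 gene, and symbols were updated by gene ID. Arrays were divided at a Pcp2 linear signal of 4096, log2 12, which gave 11 high and 9 low arrays. Isoflurane was set against oxygen by limma (version 3.58.1, R 4.3.3) using lmFit and trended eBayes. Tests were two-sided, with p adjusted by Benjamini-Hochberg over all tested probe sets and a threshold of 0.05. Means over the tested probe sets of a gene were fitted apart, with p adjusted over all genes that have a tested probe set. Fits ran over all 20 arrays, with the array set as a block, within each set and as an interaction. The fits were tested on simulated data. Summaries and plots used Python 3.11.15 with numpy 2.4.6, pandas 2.3.3 and matplotlib 3.10.9.

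Lists used the brightest tested probe set of each gene. Named were every member probe set, up to 5 called genes of each list by lowest p in the blocked fit, and the 3 nearest genes by profile. Alternatives were quantile normalization, centring on array medians, pseudocounts of 16 and 64, no filter or one at the 60th percentile, array weights, the 3'/5' ratio as a covariate, the replicate number as a block, and leaving out arrays. Promoters came from a RefSeq table of the assembly GRCr8 (250 bases before each start). Cerebellar, cortical and 9 other marker lists were measured on every array. No detection calls entered the work.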

Additional observations from a re-analysis of the deposited data

Results flagged for a closer look

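Chance sets apart the highest or lowest array in about 1 in 20 groups, and 52 combinations of probe set, group and array set were checked, of which 6 stood out by the gap to the nearest array as a share of the group's range. Among high-Pcp2 isoflurane arrays, isoflurane 9 was highest for Gabbr1 on 1375720_at, at 12.60 against 12.16 to 12.28 (gap 0.723 of the range). Among low-Pcp2 isoflurane arrays, isoflurane 10 stood out for 4 probe sets. It was highest for Gabbr1 on 1369371_a_at, at 10.73 against 8.41 to 8.73 (gap 0.859), and lowest for Gabbr1 on 1388030_a_at, at 7.07 against 8.45 to 8.58 (gap 0.908). It was highest for Gabarapl1 on 1371680_at, at 12.79 against 12.04 to 12.17 (gap 0.817), and on 1378842_at, at 10.47 against 9.78 to 9.98 (gap 0.71). Among high-Pcp2 oxygen arrays, oxygen 10 was lowest for Gabbr2 on 1368952_at, at 6.62 against 7.45 to 7.70 (gap 0.762).

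The isoflurane effect on Gabbr1 1369371_a_at differed between the array sets by 1.63 (high minus low Pcp2) in the interaction test.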

How the results depend on the processing

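Of 13 tested probe sets, counts past the threshold moved as follows, and the cause was not tested. Over all 20 arrays 0 became 1 with a filter at the 60th percentile, array weights or the 3'/5' ratio as a covariate, while calls among all tested probe sets went from 74 to 125 (of 12417), 337 and 289, and it lay between 0 and 1 as each array was left out. With the array set as a block 2 became 0 without isoflurane 2, 4, 5 and 6, and lay between 1 and 3 as each array was left out. Within high-Pcp2 arrays 0 became 1 with array weights, while calls among all probe sets went from 0 to 1075 (range 0 to 2 as each array was left out). Within low-Pcp2 arrays 3 became 0 with the 3'/5' ratio as a covariate and without isoflurane 2, 4, 5 and 6, an alternative chosen after seeing the data (range 1 to 5). The interaction count of 1 became 3 with median centring, 4 with array weights and 0 with the 3'/5' ratio (range 0 to 3), while the count over all probe sets went from 1897 to 3899, 5815 and 104. The 8 called genes of the pathway lists became 0 without isoflurane 2, 4, 5 and 6: Atg3 (0.31), Map1lc3a (-0.32), Iqsec3 (-0.66) and Enah (-0.25) stayed within 1.5 times of their change, and Grk2 (-0.24), Pianp (-0.45), Mdga2 (0.22) and Slc6a9 (-0.36) did not. The means over the probe sets of a gene were refitted under alternatives chosen after seeing the data, and as single arrays were left out ranged from -0.45 to -0.36 for Gabbr1 and -0.63 to -0.44 for Gabbr2. As single arrays were left out, the called Pianp (-1.14 to -0.85), Grk2 (-0.83 to -0.68), Enah (-0.33 to -0.27) and Mdga2 (0.45 to 0.58) each lost the threshold at least once, and Enah also without a filter (-0.30) and Atg3 with median centring (0.23). The replicate number as a further block, given below, also took the count with the array set as a block from 2 to 0. Pseudocounts, robust or untrended variances and the remaining settings kept every count of the 13 within 1.5 times.

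Same-numbered arrays of the 2 groups did not deviate together: 5 of 10 correlations of their deviations from the group means were over 0.1 (range -0.66 to 0.62), and 2 of 10 within array sets, so the numbers were not taken as pairs. With the replicate number as a further block, 0 of 13 probe sets and 0 pathway genes passed in the blocked fit. Calls among all tested probe sets went from 1372 (7.37%) to 29 (0.156%), so the loss was array-wide. Gabbr1 on 1375720_at was -0.39 (adjusted p = 0.0874) and Gabbr2 on 1387383_at -0.33 (adjusted p = 0.098), and none of the 10 named calls was kept. Within array sets too few numbers are shared for such a block.

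These values changed sign. Without isoflurane 2, 4, 5 and 6, over all arrays, Gabbr1 on 1369371_a_at was 0.21, Glrb on 1370146_at 0.60, Gphn 0.14, Gabarap on 1370804_at -0.031 and Gabarapl1 on 1371680_at 0.012. In the blocked fit without them Gabbr1 on 1369371_a_at was 0.14, Gphn 0.091 and Gabarapl1 on 1371680_at 0.14. In low-Pcp2 arrays without them Gabbr1 on 1369371_a_at was 0.18, Gabbr2 on 1368952_at 0.20, Glrb on 1370146_at 0.96, Gphn 0.13 and Gabarapl1 on 1371680_at 0.26. With the 3'/5' ratio, Glrb on 1370146_at was 0.24 over all arrays, 0.31 in low-Pcp2 arrays and -0.16 as interaction. Gphn was 0.023 over all arrays and 0.017 in the blocked fit, and Gabarap on 1370804_at -0.0028 over all arrays and -0.008 in high-Pcp2 arrays. The interaction with that ratio was 0.20 for Gabbr1 on 1388030_a_at, -0.32 for Gabbr2 on 1368952_at and -0.17 for Gabarapl1 on 1378842_at. With array weights over all arrays Glrb on 1370146_at was 0.22 and Gabarapl1 on 1371680_at 0.10. With median centring Gabarap on 1370804_at was -0.047 over all arrays and -0.068 blocked, Glrb on 1370146_at -0.036 blocked, Glrb on 1391092_at 0.18 as interaction, and Gabarapl1 on 1378842_at -0.063 in low-Pcp2 arrays. With quantile normalization Gabarap on 1370804_at was -0.0044 blocked, -0.034 in high-Pcp2 and 0.032 in low-Pcp2 arrays and -0.067 as interaction. As single arrays were left out, Gabarap on 1370804_at ranged from -0.001 to 0.050 over all arrays, -0.016 to 0.029 blocked, -0.0048 to 0.048 in high-Pcp2 and -0.073 to 0.036 in low-Pcp2 arrays and -0.013 to 0.097 as interaction. Gabarapl1 on 1371680_at ranged from -0.11 to 0.015 over all arrays, Gabbr1 on 1388030_a_at from -0.44 to 0.044 in low-Pcp2 arrays and Glrb on 1391092_at from -0.17 to 0.043 as interaction. Glrb on 1370146_at ranged from -0.14 to 0.15 over all arrays and -0.088 to 0.20 blocked, and Gphn from -0.095 to 0.012 and -0.052 to 0.025.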
